A study of Danio rerio with 32 samples.

Results

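Cohesin is a ring-shaped protein complex that holds sister chromatids together and extrudes loops of chromatin, and how much of it sits on a chromosome is set by factors that are not part of the ring. The 10 genes described here encode such factors in zebrafish: the loader (nipbla, nipblb, mau2), the release factors (wapla, waplb, pds5a, pds5b), the enzymes that acetylate and deacetylate the Smc3 subunit (esco2, hdac8) and the DNA-binding protein at which loop-extruding cohesin halts (ctcf). They were chosen by gene symbol among the 32057 genes of the count table, all 10 were found, and all 10 passed the filter on low counts. The transcripts were counted by RNA sequencing of tailbuds, the growing posterior end of the embryo, cut off at 16 somites and collected in pools of 80.

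Nipbl and Mau2 together load cohesin and drive loop extrusion. Wapl, working with Pds5, opens the ring and releases it, while Esco2 acetylates Smc3 during DNA replication and so protects a share of the rings from release, and Hdac8 removes that mark so that the subunits can be used again. In humans, heterozygous loss of NIPBL causes Cornelia de Lange syndrome, HDAC8 is mutated in a related form, and loss of ESCO2 causes Roberts syndrome.

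The embryos were WIK wild type, rad21-/-, rad21+/- or stag2b-/-, and the pools of each genotype were either untreated or given 2.5 µM BIO (6-bromoindirubin-3'-oxime, an inhibitor of Gsk3 that activates canonical Wnt signalling) from 4 hours after fertilization until the tailbuds were taken. The rad21 allele was nz171, a point mutation in the gene that the annotation calls rad21a, which encodes the subunit closing the ring, and the stag2b allele was nz207, in 1 of the genes for the subunit that binds Rad21. The rad21-/- and rad21+/- tailbuds were told apart by genotyping the head of each embryo. For tailbud RNA the paper describes genotyping for these genotypes only, and it does not state that wild-type embryos were their siblings. The part of family or line background in differences from wild type was not tested. Each of the 8 groups had 4 pools, 32 libraries in all, and since the labels did not tie the pools to separate clutches, the p-values measure the spread between these pools. A tailbud pool holds many cell types, so that fewer cells of a type and less RNA per cell cannot be told apart.

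Library totals ran from 32464614 to 115057368 fragments, and no member had fewer than 755 fragments in any library. The mutated rad21a transcript was at 784 ± 70.8 CPM (counts scaled to the normalized library size; mean ± SD, n = 4) in untreated wild type, 378 ± 31.2 in rad21+/- and 53.9 ± 8.52 in rad21-/-. The stag2b transcript, at 188 ± 22.2 CPM in wild type and 165 ± 7.78 in stag2b-/-, overlapped between these groups, and with BIO lay wholly below wild type (132 to 144 CPM against 148 to 190.2). All 12 tailbud markers were detected in every group and summed to between 1226 and 2562 CPM, against 13.98 to 20.5 CPM for 5 brain markers, but 5 skin markers summed to 16500 to 55705 CPM. The sum of the tailbud markers was lower in untreated rad21-/- (1226 to 1575 CPM against 1967 to 2562 in wild type). Among them hoxd13a was higher there (58.5 to 74.8 CPM against 21.97 to 58.3). The other markers had lower means, though pools of hoxa13b, fgf8a and noto overlapped. Skin markers were lower with BIO in wild type (16500 to 23676 CPM against 24872 to 55705 untreated), in rad21-/- (20954 to 30569 against 31677 to 43590) and in stag2b-/- (25199 to 30431 against 37732 to 48106), and all 5 fell in the mean response to BIO. Muscle markers were higher in untreated rad21-/- (242 to 336 CPM against 47.8 to 127 in wild type), and blood markers were lower there (128 to 201 against 292 to 409) and in untreated rad21+/- (77.6 to 148), where all 5 fell. With BIO, tailbud markers summed to 2396 to 2541 CPM in wild type. They were lower in treated rad21-/- (1650 to 1739), rad21+/- (1942 to 2326) and stag2b-/- (1917 to 2036). Treated muscle markers were higher in rad21-/- than in wild type (191 to 309 CPM against 118 to 182). Treated skin markers were higher in rad21+/- (25939 to 27853 CPM) and, as given above, in stag2b-/- than in wild type. The part of these tissues in the results below was not tested.

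For their length, esco2 and ctcf had the highest mean levels and the loader gene nipbla the lowest. Levels of different genes were compared in untreated wild type as CPM per kilobase of exon. This length is that of all annotated exons of a gene, merged. The lengths of the transcripts expressed were not examined, and the order can depend on them. On this scale esco2 was at 47.7 ± 1.19 and ctcf at 44.8 ± 4.68. They were followed by pds5a at 38.03 ± 1.15, pds5b at 26.9 ± 0.872, mau2 at 24.01 ± 1.40, waplb at 16.8 ± 1.86 and nipblb at 12.5 ± 0.376. At the bottom stood hdac8 at 8.87 ± 1.35, wapla at 8.78 ± 0.219 and nipbla at 8.01 ± 0.371. The pools of esco2 and ctcf, of pds5b and mau2, and of hdac8 and wapla overlapped, and those of the other neighbours in this order did not. Pools of hdac8 (7.97 to 10.9) and nipbla (7.76 to 8.55), which are not neighbours in it, also overlapped. By mean CPM per kilobase nipbla was the lowest of the 10 in every group. The highest was pds5a in rad21-/- with and without BIO, ctcf in untreated stag2b-/-, and esco2 in the other 5 groups. Within a gene the range over the 8 group means was small, the highest mean being 1.4995 times the lowest for esco2, 1.47 times for hdac8 and for ctcf, and 1.13 times for waplb, the narrowest.

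**Figure D1:**
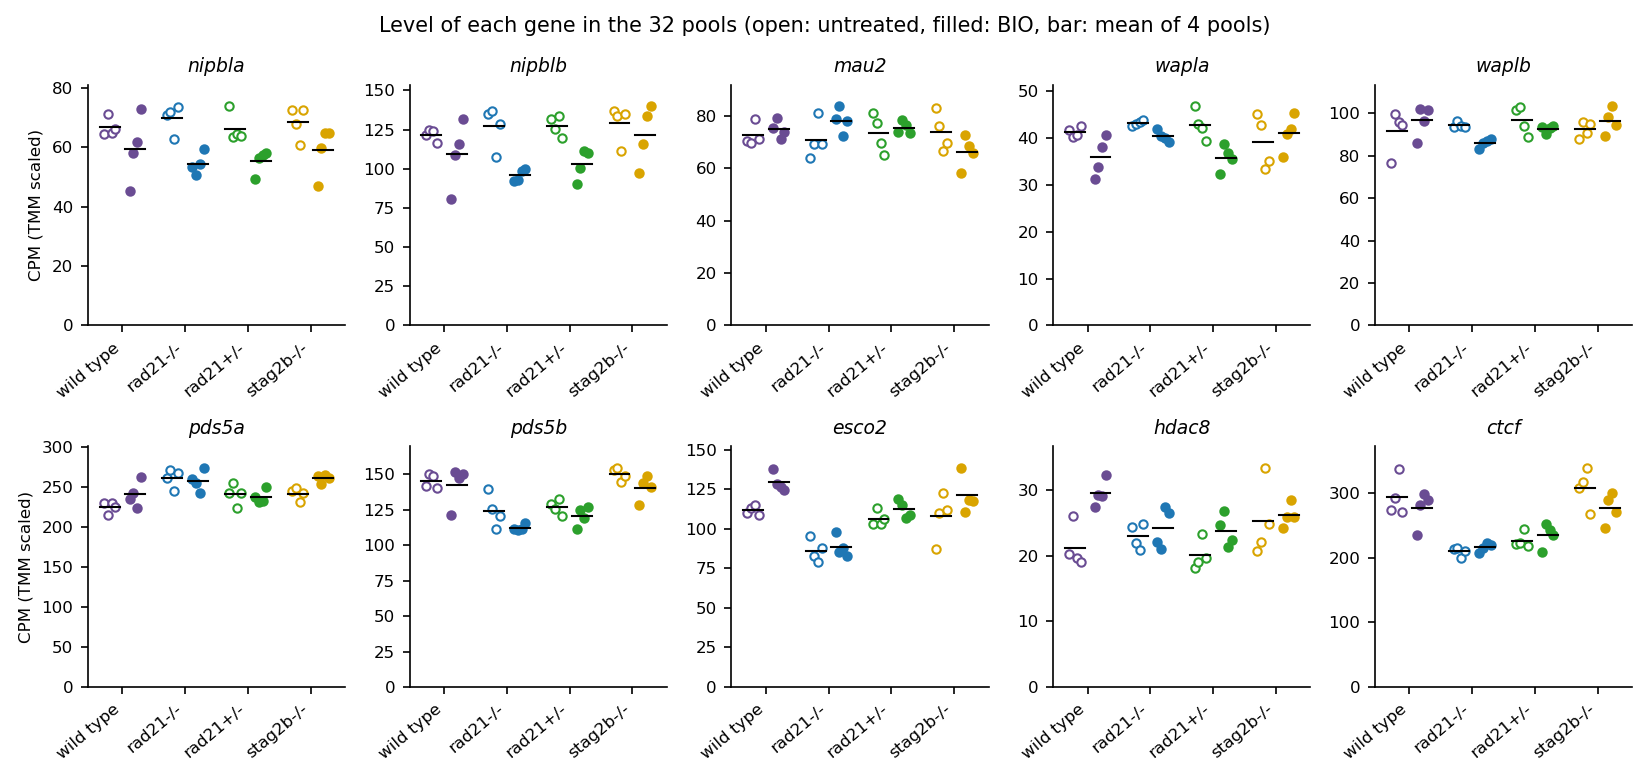
CPM of the 10 members in each of the 32 pools, by genotype and treatment, with untreated pools open, BIO pools filled, the mean of 4 pools as a bar and a panel with its own scale from 0 for each gene. The rad21-/- pools of ctcf lie between 199 and 222 CPM, with or without BIO, below every untreated wild-type pool (271 to 337).

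The main question was whether loss of a cohesin subunit changed the transcripts of the factors that handle cohesin. In untreated rad21-/- tailbuds ctcf fell by 0.48 on the log2 scale, esco2 fell by 0.37 and pds5b fell by 0.22, while pds5a rose by 0.22. The loaders, both wapl genes and hdac8 did not pass the test. These 4 of 10 called members stood against 32.5% of all 20677 genes tested in this comparison by edgeR's quasi-likelihood test at 5% FDR (Benjamini-Hochberg), and against 26.3% of the 6829 genes at least as abundant as the lowest member. The median size of the log2 fold change was 0.10 for the members, 0.20 for those equally abundant genes and 0.35 for all genes.

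Both nipbl genes, which encode the large subunit of the loader, differed little between rad21-/- and wild type. The nipbla pools had 70.8, 71.7, 62.7 and 73.3 CPM in rad21-/- and 64.5, 71.1, 64.8 and 66.2 CPM in wild type, and nipblb had 135, 137, 107 and 128 against 121, 124, 124 and 117. The pools overlapped for both, and the log2 fold changes were 0.07 for each, with 95% intervals of -0.10 to 0.24 for nipbla and -0.12 to 0.25 for nipblb (adjusted p = 0.59 and 0.62, edgeR quasi-likelihood test with Benjamini-Hochberg adjustment). Both have at least 8 kb of exon, and the 408 such genes at least as abundant as the lowest member had a median of 0.16 here. The transcript of mau2, the partner of Nipbl, had 63.8, 69.3, 81.0 and 69.5 CPM in rad21-/- and 70.6, 69.8, 79.0 and 71.3 in wild type. Its groups overlapped, with a log2 fold change of -0.03 and an interval of -0.23 to 0.17.

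Of the release factors, the Pds5 genes moved in opposite directions. Pds5 proteins bind the ring beside Rad21 and serve both release and the protection of acetylated cohesin. The pds5a pools had 262, 272, 246 and 268 CPM in rad21-/- and 230.1, 216, 229.8 and 226 CPM in wild type, and the pds5b pools had 139.5, 126, 112 and 121 against 142, 149.8, 149 and 141. Every rad21-/- pool was above every wild-type pool for pds5a and below for pds5b, the latter by a narrow gap between the highest mutant and the lowest wild-type pool. Of all genes, 30.9% had groups that did not overlap in this comparison, and 5 of the 10 members did. The log2 fold change was 0.22 (SE, the standard error, 0.08, adjusted p = 0.03) for pds5a and -0.22 (0.08, adjusted p = 0.048) for pds5b by the quasi-likelihood test of edgeR with Benjamini-Hochberg adjustment. Both calls were close to the threshold. That of pds5a was lost without rad21-/- pool 1, 2 or 4 or wild-type pool 2, 3 or 4, and that of pds5b without any one of the 8 pools other than rad21-/- pool 1, with log2 fold changes of 0.19 to 0.25 and -0.27 to -0.17 over these fits. Both genes have 4 to 8 kb of exon (5923 bp in pds5a and 5401 bp in pds5b). The 1872 such genes at least as abundant as the lowest member had a median of -0.002 in this comparison. Those with at least 8 kb (408) had a median of 0.16. With a trend on exon length removed from each library, an alternative chosen after seeing the data, pds5a was at 0.14 and did not pass (adjusted p = 0.23). In that fit pds5b was at -0.27, esco2 at -0.34 and ctcf at -0.58, and these 3 passed. The wapl transcripts, for the protein that opens the ring, had 42.5, 42.8, 43.4 and 43.9 CPM (wapla) in rad21-/- against 41.8, 40.3, 40.6 and 42.5 in wild type, and 93.4, 96.5, 93.9 and 93.8 CPM (waplb) against 76.9, 99.7, 95.9 and 94.5. The wapla groups were apart by less than the last digit shown and the waplb groups overlapped, with log2 fold changes of 0.07 and 0.05 that did not pass the test (adjusted p = 0.63 and 0.72).

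The transcript of esco2, the Smc3 acetyltransferase of S phase, had 95.3, 82.8, 78.9 and 87.6 CPM in rad21-/- and 110.2, 113, 115 and 109 CPM in wild type. All mutant pools lay below all wild-type pools. The log2 fold change was -0.37 (SE 0.10, adjusted p = 0.0067, edgeR quasi-likelihood test with Benjamini-Hochberg adjustment), a level 22.6% lower, and the call held when any 1 of the 8 pools was left out. For hdac8, the Smc3 deacetylase, the pools had 24.4, 21.97, 20.8 and 24.8 CPM against 20.2, 26.02, 19.6 and 19.1, which overlapped, and the log2 fold change was 0.12 with an interval of -0.16 to 0.41.

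CTCF, the zinc-finger protein at which loops end, had the largest difference of the 10. The ctcf pools had 213, 215, 199 and 210.3 CPM in rad21-/- and 274, 292, 337 and 271 CPM in wild type. The groups were far apart, the highest mutant pool standing well under the lowest wild-type pool. The log2 fold change was -0.48 (SE 0.09, adjusted p = 0.00085, edgeR quasi-likelihood test with Benjamini-Hochberg adjustment), or 28.4% less, and held without any 1 pool.

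The heterozygotes also had less ctcf than the wild-type pools, whose family relation to the rad21 embryos was not stated. In untreated rad21+/- tailbuds ctcf fell by 0.37 on the log2 scale (SE 0.09, adjusted p = 0.0089, edgeR quasi-likelihood test with Benjamini-Hochberg adjustment) and was the only member called, 1 of 10 against 20.5% of all genes and 13.5% of genes at least as abundant. Its pools had 221, 223, 244 and 217 CPM, all below the wild-type pools, which are the same control pools as in the homozygous comparison. The call held when any 1 pool was left out. For pds5b the heterozygous pools had 129, 126, 133 and 121 CPM and also lay below wild type, but its log2 fold change of -0.19 (interval -0.35 to -0.03) did not pass the test (adjusted p = 0.11). The groups of ctcf and of pds5b were 2 of the 10 that did not overlap, against 22.9% of all genes. The esco2 pools, at 103, 113, 103 and 106 CPM, overlapped with wild type, and the log2 fold change of -0.07 had an interval of -0.26 to 0.12.

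A direct comparison of rad21-/- with rad21+/- called none of the 10 by edgeR's quasi-likelihood test, against 5.32% of all genes, and DESeq2 also called none. The only member with an unadjusted p under 0.05 was esco2, 1 of 10, whose homozygous pools all lay below the heterozygous pools given above. Its log2 fold change was -0.30 (SE 0.10, adjusted p = 0.084). The homozygous ctcf pools were also all below the heterozygous ones, with a log2 fold change of -0.11 and an interval of -0.29 to 0.08 that did not pass the test. These 2 of 10 members without overlap stood against 13.6% of all genes.

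In untreated stag2b-/- tailbuds no member was called, and fewer of all genes were called than in the rad21 comparisons with wild type. Neither edgeR's quasi-likelihood test nor DESeq2 called any of the 10, 0 of 10 had an unadjusted p under 0.05, and 6.29% of all genes and 3.43% of genes at least as abundant were called. The log2 fold changes ran from -0.09 for wapla to 0.24 for hdac8. For ctcf the stag2b-/- pools had 307, 317, 338 and 267 CPM, spanning the wild-type pools, and the log2 fold change of 0.06 had an interval of -0.13 to 0.24. For esco2 they had 87.4, 109.6, 122 and 112 CPM, from below to above wild type, with a log2 fold change of -0.06 and an interval of -0.25 to 0.13. The intervals of both genes left out the rad21-/- point estimates of -0.48 for ctcf and -0.37 for esco2, which have errors of their own. That of hdac8 ran from -0.04 to 0.53. A test of stag2b-/- against rad21-/- was not made. The groups overlapped for 9 members, and only pds5a, with 245, 249, 231 and 243 CPM, lay wholly above wild type (1 of 10, against 10.2% of all genes), at a log2 fold change of 0.09 that did not pass the test (adjusted p = 0.54).

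**Figure D2:**
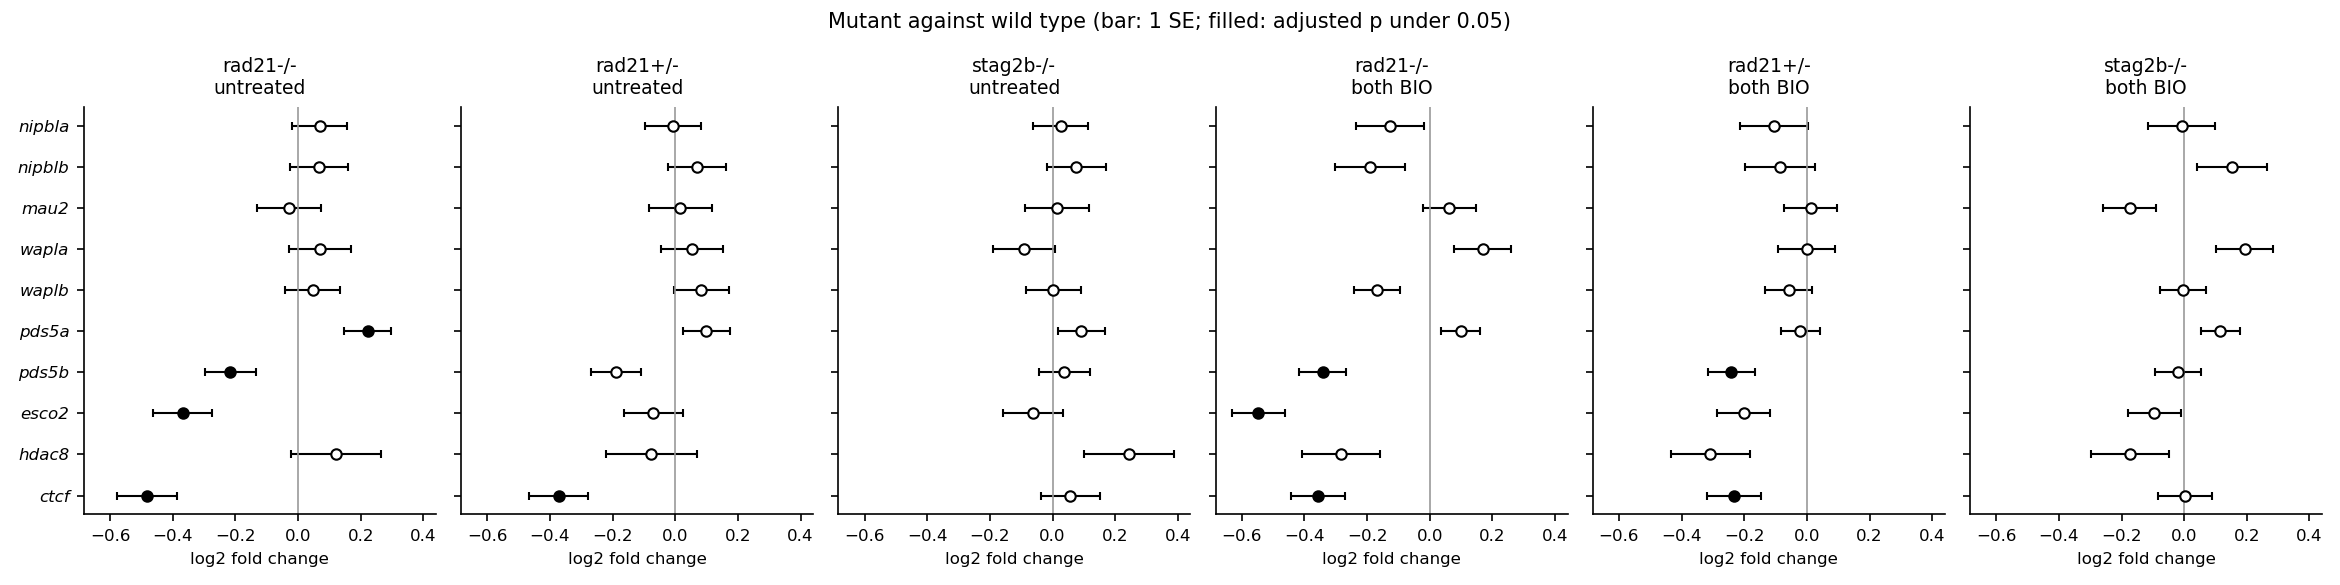
Log2 fold change of each member against wild type of the same treatment, with bars of 1 SE, for rad21-/-, rad21+/- and stag2b-/-, untreated and with BIO. Filled points passed the test at 5% FDR. The untreated points of ctcf stand at -0.48, -0.37 and 0.06 in these 3 genotypes, while those of nipbla and nipblb lie between -0.01 and 0.08.

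Averaged over genotypes, the nipbl genes were lower with BIO and the genes of the Smc3-modifying enzymes higher, but not under every alternative. As described below, the nipbl calls were lost with a trend on exon length removed. That of esco2 was lost without the BIO pools labelled 1. The mean response over the 4 genotypes fell by 0.25 for nipbla, by 0.24 for nipblb and by 0.12 for wapla, and rose by 0.12 for esco2 and by 0.21 for hdac8, all on the log2 scale. The calls of 5 of 10 members stood against 34.1% of all 21385 genes tested in the fit to all 32 libraries and 48.5% of the 6503 genes at least as abundant as the lowest member. The adjusted p was 0.00054 for nipbla, 0.0012 for nipblb, 0.038 for wapla, 0.024 for esco2 and 0.0081 for hdac8 (edgeR quasi-likelihood test with Benjamini-Hochberg adjustment). Those of nipbla, nipblb and hdac8 held when any 1 of the 32 libraries was left out. That of esco2 was lost without stag2b-/- BIO pool 1 (adjusted p = 0.053) or rad21-/- BIO pool 1 (adjusted p = 0.052), and that of wapla in 12 of the 32 such fits, its log2 fold change being -0.14 to -0.11 over all of them. The other 5 members had mean responses from -0.09 (pds5b) to 0.04 (pds5a) that did not pass the test.

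By genotype, the nipbl genes passed the test in rad21-/-. The nipbla pools had 53.3, 50.5, 54.4 and 59.5 CPM with BIO against 70.8, 71.7, 62.7 and 73.3 untreated, and the nipblb pools 92.1, 93.1, 98.3 and 99.8 against 135, 137, 107 and 128. Every treated pool was below every untreated pool for both genes. The log2 fold changes were -0.36 (SE 0.11, adjusted p = 0.038) for nipbla and -0.41 (0.11, adjusted p = 0.024) for nipblb by the quasi-likelihood test of edgeR with Benjamini-Hochberg adjustment, and these 2 of 10 stood against 7.16% of all genes. Groups that did not overlap were found for 4 of 10 members (both nipbl and both wapl genes, all lower) and for 16.2% of all genes. The call of nipbla was lost without untreated pool 1, 2 or 4 or BIO pool 1, 2 or 3 and that of nipblb without untreated pool 1 or 2 or BIO pool 1 or 2, with adjusted p up to 0.12 and 0.095.

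In rad21+/- the treated pools of nipbla (49.3, 56.1, 57.4 and 58.1 CPM) and nipblb (90.2, 101, 111 and 109.9 CPM) also lay below the untreated ones (63.3 to 73.7 and 119.5 to 133 CPM). So did those of wapla, with 32.3, 38.7, 36.8 and 35.4 CPM against 39.3 to 46.7. The log2 fold changes of -0.26, -0.31 and -0.26 did not pass the test (adjusted p = 0.16, 0.11 and 0.11), and 0 of 10 members were called by edgeR or by DESeq2, with 3 of 10 at an unadjusted p under 0.05 and 3.62% of all genes called. These 3 of 10 members without overlap stood against 15% of all genes. In wild type the nipblb pools had 80.9, 109, 116 and 132 CPM with BIO, from far below to above the untreated pools, and the log2 fold changes of nipbla and nipblb were -0.17 and -0.15 (adjusted p = 0.31 and 0.38). In stag2b-/- they were -0.21 and -0.09 (adjusted p = 0.24 and 0.71), and the treated nipblb pools had 97.0, 116, 133 and 139.7 CPM. There 0 of 10 members were called by edgeR or by DESeq2, 0 of 10 had an unadjusted p under 0.05, and 7.99% of all genes were called.

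The nipbl genes are long, with 8317 bp of exon in nipbla and 9756 bp in nipblb, and long transcripts moved with BIO as a class. The 383 genes with at least 8 kb of exon and at least the abundance of the lowest member had a median log2 fold change with BIO of -0.19 over the 4 genotypes, -0.34 in rad21-/-, -0.25 in rad21+/- and -0.12 in wild type and in stag2b-/-. What moved long transcripts was not tested. The pool labelled 1 had the lowest nipblb level in all 4 BIO groups, and in those pools long genes stood furthest below their untreated wild-type mean within each group, at a median of -0.37, -0.24, -0.23 and -0.21 on the log2 scale (wild type, rad21-/-, rad21+/- and stag2b-/-). When a trend on exon length was taken out of each library, an alternative chosen after seeing the data, the mean response over genotypes became -0.10 for nipbla (adjusted p = 0.11) and -0.06 for nipblb (adjusted p = 0.36), and in rad21-/- both were at -0.12 and did not pass the test (adjusted p = 0.48 and 0.5). Without the 4 BIO pools labelled 1, also chosen after seeing the data, the mean responses were -0.18 for nipbla (adjusted p = 0.0035) and -0.16 for nipblb (adjusted p = 0.0088), and both genes still passed in rad21-/- (-0.33, adjusted p = 0.036, and -0.37, adjusted p = 0.022). That of wapla passed neither, with -0.08 under each (adjusted p = 0.18 and 0.19), and that of esco2 did not pass without those pools (0.08, adjusted p = 0.16).

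**Figure D3:**
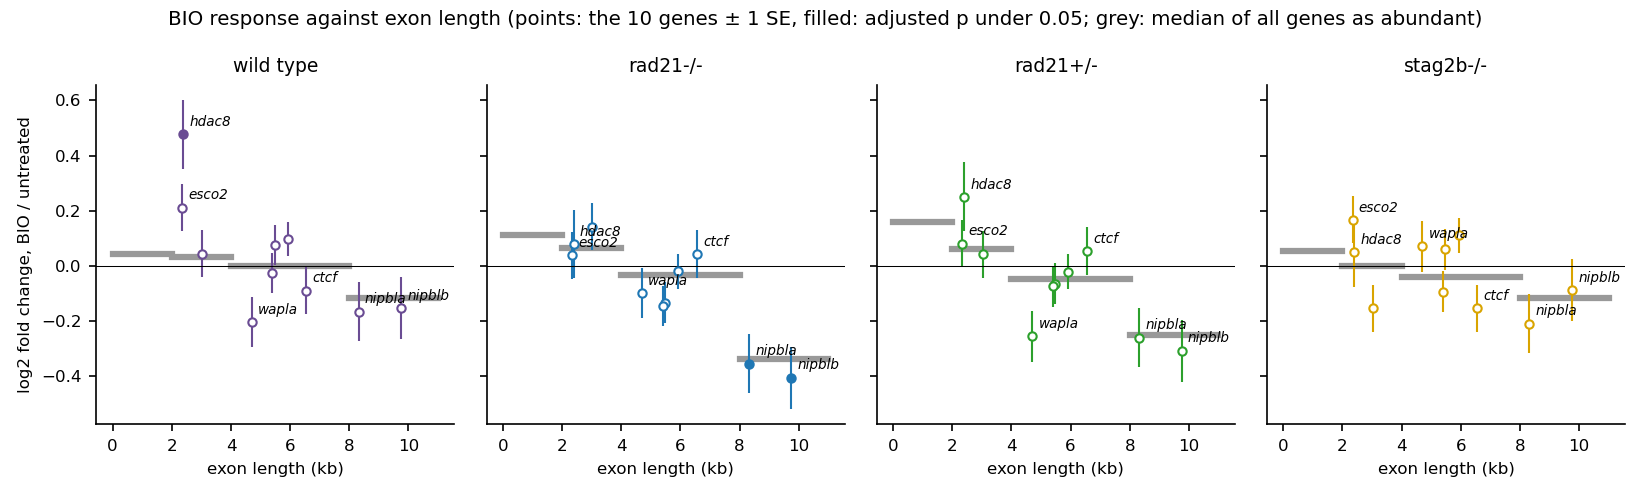
Log2 fold change with BIO of the 10 members against exon length in kilobases, a panel for each genotype, with bars of 1 SE, filled points for those that passed the test and grey lines for the median of all genes as abundant in 4 ranges of length. In rad21-/- nipbla and nipblb stand at -0.36 and -0.41, beside a grey line at -0.34 for genes of at least 8 kb.

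The response of hdac8 was largest in wild type. Its pools had 27.4, 29.3, 29.1 and 32.3 CPM with BIO and 20.2, 26.02, 19.6 and 19.1 CPM untreated, and the treated pools were all above the untreated ones, of which pool 2 was high. The log2 fold change was 0.48 (SE 0.12, adjusted p = 0.0074, edgeR quasi-likelihood test with Benjamini-Hochberg adjustment), 39.2% more, and hdac8 was the only member called in wild type, 1 of 10 against 17.3% of all genes. It held without any 1 pool, at 0.43 to 0.59, and at 0.48 with the length trend removed. In the other genotypes hdac8 did not pass the test, its log2 fold change being 0.08 in rad21-/-, 0.25 in the heterozygotes and 0.05 in stag2b-/-. The difference from wild type was -0.40 (unadjusted p = 0.031, adjusted p = 0.35) in rad21-/-, -0.23 (0.21, adjusted p = 0.64) in rad21+/- and -0.43 (0.021, adjusted p = 0.26) in stag2b-/- as an interaction in edgeR's fit, and none passed.

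For esco2 the wild-type pools had 138, 128, 126 and 124 CPM with BIO, all above the untreated ones (110.2, 113, 115 and 109 CPM), and the log2 fold change was 0.21 (interval 0.04 to 0.38), which did not pass the test within wild type (adjusted p = 0.087). The groups of esco2 and hdac8 were 2 of 10 that did not overlap in wild type, against 15.8% of all genes. Responses of esco2 in the mutants were 0.04 (rad21-/-), 0.08 (rad21+/-) and 0.17 (stag2b-/-), with groups that overlapped.

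Across the 3 interactions of genotype with BIO, edgeR's quasi-likelihood test called 0 of 30 (10 members in each) and DESeq2 also 0, with 3 of 30 at an unadjusted p under 0.05 and a smallest adjusted p of 0.26. Of all genes, 0.874% were called for rad21-/-, 0.912% for rad21+/- and 1.34% for stag2b-/-. Besides the pair of hdac8 values, the remaining one was wapla in stag2b-/-, at 0.27 (adjusted p = 0.35).

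With BIO in both genotypes, rad21-/- again had less esco2, ctcf and pds5b than wild type. The treated esco2 pools had 98.1, 85.4, 87.5 and 82.8 CPM in rad21-/- against 138, 128, 126 and 124 in wild type. The groups were far apart, at a log2 fold change of -0.55 (SE 0.09, adjusted p = 7e-06, edgeR quasi-likelihood test with Benjamini-Hochberg adjustment). The ctcf pools had 207, 214, 222 and 219.6 CPM against 235, 281, 299 and 288, at -0.36 (adjusted p = 0.0016), and the pds5b pools 112, 111, 112 and 116 CPM against 122, 151, 147 and 150.3, at -0.34 (adjusted p = 0.00047). In both, the closest wild-type pool was pool 1, and no groups overlapped. These 3 of 10 calls stood against 35.6% of all genes, the 3 of 10 groups without overlap against 36.3%, and all 3 calls held without any 1 pool. For pds5a, which had passed the test in untreated rad21-/-, the treated pools had 260.2, 256, 243 and 274 CPM in rad21-/- and 236, 243, 224 and 262 in wild type and overlapped. The nipblb log2 fold change of -0.19 did not pass edgeR's quasi-likelihood test (adjusted p = 0.19). Of the 8 fits without 1 pool it passed in 1, without wild-type BIO pool 1 (-0.28, adjusted p = 0.041). It also passed without the 4 BIO pools labelled 1 (-0.27, adjusted p = 0.04). With the length trend removed it was at -0.19 and did not pass (adjusted p = 0.12).

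In treated rad21+/- against the same treated wild-type pools, pds5b (-0.24, adjusted p = 0.016) and ctcf (-0.23, adjusted p = 0.049) were called by the quasi-likelihood test of edgeR with Benjamini-Hochberg adjustment, 2 of 10 against 22.9% of all genes, although the pools of both overlapped. The call of pds5b was lost without rad21+/- BIO pool 1 or wild-type BIO pool 2 or 4 (-0.20 to -0.21), and that of ctcf without rad21+/- BIO pool 1, 3 or 4 or wild-type BIO pool 2, 3 or 4 (-0.24 to -0.17). Treated esco2 (-0.20, adjusted p = 0.088) and hdac8 (-0.31, adjusted p = 0.074) did not pass, though their groups did not overlap, 2 of 10 against 29.3% of all genes. With only the compared libraries fitted, esco2 (-0.21, adjusted p = 0.042) and hdac8 (-0.31, adjusted p = 0.025) passed and ctcf did not (adjusted p = 0.057). In treated stag2b-/-, 0 of 10 members were called by edgeR or by DESeq2, 1 of 10 (wapla, 0.19, adjusted p = 0.17) had an unadjusted p under 0.05, and 13.6% of all genes were called.

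Pairs of related genes among the 10 are nipbla and nipblb, wapla and waplb, and pds5a and pds5b, of which mammals share only the last, and the division of counts within a pair was followed as the share of the b gene. The pds5b share of pds5a and pds5b counts was 39.2% ± 1.3 (SD, n = 4) in untreated wild type, between 38.1% and 41.0%. It was 32.2% ± 1.7 in rad21-/- (31.05% to 34.8%) and 34.5% ± 1.9 in rad21+/- (33.1% to 37.2%), wholly below wild type in both, and 38.3% ± 0.2 in stag2b-/-, which overlapped with it. With BIO the share was 37.1% ± 2.4 in wild type, 30.4% ± 0.8 in rad21-/-, 33.7% ± 1.3 in rad21+/- and 34.98% ± 1.6 in stag2b-/-. The treated pools of all 3 mutants lay wholly below untreated wild type, at 36.1% or less. Against treated wild type (34.04% to 39.6%) only those of rad21-/- lay wholly below (29.7% to 31.5%). Those of treated rad21+/- (31.97% to 35.01%) and stag2b-/- (32.7% to 36.1%) overlapped with it. Against untreated pools of the same genotype, the treated share lay wholly below in stag2b-/- only (37.97% to 38.5% untreated). The nipblb share of the nipbl counts had group means from 63.8% to 67.3%, and was wholly above untreated wild type (63.6% to 65.7%) in stag2b-/- with BIO (65.96% to 68.3%). Those pools were also wholly above treated wild type (64.2% to 65.3%), but overlapped with untreated stag2b-/- (64.7% to 66.3%). The waplb share of the wapl counts had means from 68.1% to 73.0%, and was wholly above untreated wild type (64.8% to 71.2%) in wild type with BIO (71.5% to 75.2%). Treated rad21-/- (66.6% to 69.2%) and treated stag2b-/- (67.7% to 71.3%) lay wholly below treated wild type. Treated rad21+/- (70.1% to 74.4%) overlapped with it. No test was made on shares.

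**Figure D4:**
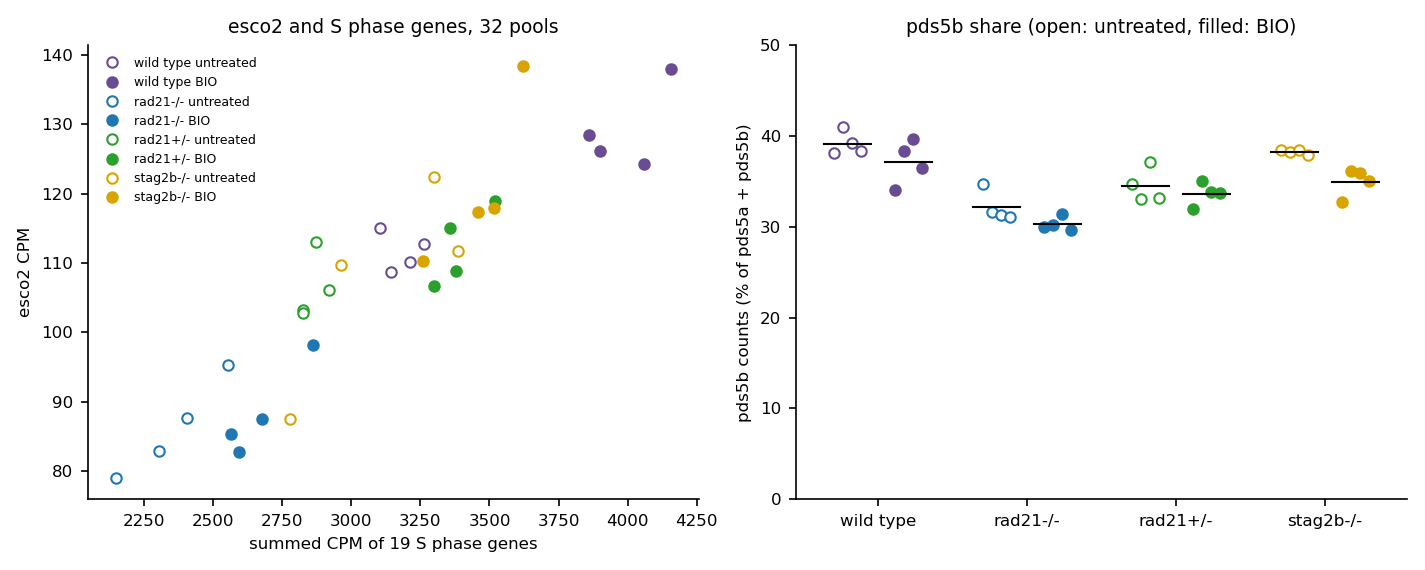
On the left is esco2 CPM against the summed CPM of 19 S phase genes in each of the 32 pools, coloured by genotype and filled with BIO, and on the right the pds5b share of pds5a and pds5b counts (%) in each pool with the group mean. The rad21-/- pools lie at the lower left, at 98.1 CPM of esco2 or less, where untreated stag2b-/- pool 1 (87.4 CPM) also lies. The pds5b shares of the rad21-/- pools lie between 29.7% and 34.8%.

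Genes of related function were followed as lists. Of 19 S phase genes (such as licensing factors, helicase subunits and enzymes of nucleotide synthesis), 13 fell and 0 rose in untreated rad21-/-, with a median log2 fold change of -0.44 against -0.02 over all genes, and their summed level was 2147 to 2554 CPM against 3105 to 3264 in wild type. Examples are gins2, part of the replicative helicase (-0.83), ccne1, the cyclin of S phase entry (-0.71), and mcm2 of the helicase ring (-0.65). With BIO in wild type 10 rose and 0 fell, at a median of 0.30 and a sum of 3862 to 4159 CPM, among them tyms (0.47), cdc6 (0.47) and mcm7 (0.45). These counts stood against 32.5% of all genes called in the first comparison and 17.3% in the second, and the second count was 6 with only the compared libraries fitted. In these 2 comparisons esco2 and the sum both had groups that did not overlap and lay on the same side, as the plot of esco2 against S phase genes shows. The same held for untreated rad21-/- against rad21+/-. It also held for treated rad21-/- and for treated rad21+/- against treated wild type. In untreated rad21+/- the sum (2823 to 2920 CPM) lay wholly below wild type while esco2 overlapped, and with BIO the sum was wholly higher in rad21+/- (3298 to 3521) and in rad21-/- (2565 to 2860) while esco2 overlapped in both. In treated stag2b-/- the sum (3260 to 3620 CPM) lay wholly below treated wild type while esco2 overlapped. The part of S phase genes in the esco2 values was not tested. In untreated rad21+/- 4 of the 19 fell, at a median of -0.15. That share is close to the 20.5% of all genes called there, beside 13.5% of genes at least as abundant as the lowest member. The count was 2 to 3 when a pool was left out, 2 without rad21+/- pool 1, 2 or 4 or wild-type pool 2 or 4. In untreated stag2b-/- 0 of 19 were called by edgeR and 0 by DESeq2, against 6.29% of all genes, with 1 at an unadjusted p under 0.05. With BIO in both genotypes, 8 of 19 fell in stag2b-/-, against 13.6% of all genes called, at a median of -0.18. The count was 5 without stag2b-/- BIO pool 2 or wild-type BIO pool 1. It was 2 without the 4 BIO pools labelled 1. Against the same treated wild-type pools, edgeR called 19 of 19 in treated rad21-/- and 8 of 19 in treated rad21+/-. The shares of all genes called there were 35.6% and 22.9%. For the interaction of stag2b-/- with BIO it called 0 of 19, against 1.34% of all genes.

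The list counts in untreated rad21-/- that follow stand beside 32.5% of all genes and 26.3% of genes at least as abundant as the lowest member. Of 17 other genes of cohesion establishment, protection and cleavage, 8 fell and 0 rose in untreated rad21-/-, including haspin, the kinase that marks centromeric histone H3 (-0.86), pttg1, the separase inhibitor securin (-0.56), and tipin of the replication fork (-0.55). The count was 4 without rad21-/- pool 3 and 5 without wild-type pool 1. Of 13 genes of condensin and the Smc5/6 complex 4 fell and 0 rose, among them ncaph2 (-0.38) and smc5 (-0.36), and 2 without rad21-/- pool 2. Of 20 CTCF partners and architectural proteins 1 rose (top2b, 0.27) and 1 fell (brd3a, -0.26), and none of these was called without rad21-/- pool 2 or 4 or wild-type pool 3 or 4, and 1 without rad21-/- pool 3 or wild-type pool 1. With all 32 libraries fitted 6 of these 20 were called, and 1 without the filter or with only the compared libraries. Of 11 other deacetylase genes 2 rose, hdac12 (1.09) and hdac5 (0.78), and 1 fell. Of the 10 cohesin subunit genes that passed the filter 3 rose, with stag1a highest (1.18), and 3 fell, rad21a most (-3.86). In untreated stag2b-/- 1 of these 10 subunit genes and 1 of the 11 other deacetylase genes fell. There 6.29% of all genes and 3.43% of genes at least as abundant as the lowest member were called. In the mean response to BIO 16 of 19 S phase genes rose and 0 fell, against 34.1% of all genes and 48.5% of the equally abundant genes called, and the cohesion genes divided into 3 higher, with chtf18 at 0.28, and 2 lower, espl1 and pttg1, each at -0.25.

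Among 19926 named genes, the pattern over the 32 libraries closest to each member was sought by Pearson's r of log2 CPM. These values describe 32 libraries that share genotype, treatment, depth and the length shift above, and they carry no test. The nearest to nipbla was nipblb (r = 0.915), and the nearest to nipblb was chd7, which encodes a chromatin remodeller (0.939). For esco2 the nearest were slbp, the histone mRNA-binding protein and itself on the S phase list (0.924), and pold3, a DNA polymerase delta subunit (0.914). For ctcf they were lmnb2, a B-type lamin (0.913), and lbr, the lamin B receptor (0.909), and for pds5b they were lig3, a DNA ligase (0.892), and baz1b (0.875). The remaining members had no gene above 0.85: the highest r was 0.784 for mau2 with wnt5b, 0.796 for wapla with gigyf1a, 0.791 for waplb with wrn, 0.825 for pds5a with ASPH and 0.845 for hdac8 with an unnamed locus. Among the 45 pairs of members, pds5b and ctcf followed nipbla and nipblb at r = 0.868, and the lowest value was -0.55, for wapla and esco2.

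In GRCz11 the loaders lie at chr5:8005911-8096232 (nipbla), chr10:36475860-36547128 (nipblb) and chr2:58887599-58902477 (mau2), all on the minus strand. The release factors lie at chr17:25856671-25885472 (wapla, plus), chr12:11650146-11763658 (waplb, plus), chr1:23323002-23370618 (pds5a, minus) and chr15:33744549-33807758 (pds5b, minus). The Smc3-modifying enzymes lie at chr20:39344889-39359154 (esco2, plus) and chr7:51656099-51710015 (hdac8, minus), and ctcf at chr18:22285992-22295064 (plus). No exon of a member overlaps an exon of another gene on its own strand, and no member lies on the chromosome of rad21a or of stag2b.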

How the data were processed

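Poly(A) RNA of 32 tailbud pools was sequenced from stranded libraries, and the authors deposited raw counts of fragments per gene. They trimmed reads with Cutadapt, aligned them with HISAT2 to GRCz11 and counted fragments over Ensembl release 98 exons with featureCounts 1.5.3 in the reverse-stranded setting, leaving out multi-mapping fragments, so reads shared by near-identical copies of a gene are not in its count. The 4 genes nipbla, nipblb, wapla and waplb carried no a or b suffix in the name table and were named by chromosome and neighbours in RefSeq.

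Counts were tested with edgeR 4.0.16 (R 4.3.3): TMM normalization, filterByExpr, 1 mean per group, robust quasi-likelihood fit, Benjamini-Hochberg adjustment, 5% FDR. Untreated groups were compared in a fit to 16 libraries (20677 genes) and all else in a fit to 32 (21385 genes). A gene is called where it passed this threshold. Intervals are normal ones from the fitted standard error. CPM used TMM library sizes, and log2 CPM a prior count of 2. The test was tried on simulated data. Alternatives were DESeq2 1.42.0, DESeq2's size factors in edgeR, no filter, other library sets, a replicate block, each library left out, and the length correction and the removal of BIO pools described above, which were added after seeing the data. The named genes were all members, the mutated genes, the 2 genes most like each member and up to 3 called genes per list. The members and lists were chosen with earlier results of these data known. In lists, rrm2, wnt8a and mylpfa were not matched to 1 gene. Single-cell data and imaging were not analysed here.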

Additional observations from a re-analysis of the deposited data

Results flagged for a closer look

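Of 80 groups of 4 pools examined (10 members in 8 groups), 7 held a pool whose gap to its nearest neighbour exceeded Dixon's 95% critical value for a share of the range, where chance flags about 1 in 20, or 4. The nipbla level of rad21+/- pool 1 was 73.7 CPM, against 63.3 to 64.3 in the other pools. The nipblb level of untreated stag2b-/- pool 3 was 111 CPM, against 134 to 137. The mau2 level of untreated wild-type pool 3 was 79.0 CPM, against 69.8 to 71.3. The waplb level of untreated rad21-/- pool 2 was 96.5 CPM, against 93.4 to 93.9. For pds5b, wild-type BIO pool 1 was low at 122 CPM, against 147 to 151, and rad21-/- BIO pool 4 was high at 116 CPM, against 111 to 112. The hdac8 level of untreated wild-type pool 2 was 26.02 CPM, against 19.1 to 20.2.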

How the results depend on the processing

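No value reversed, and DESeq2 called the same members in all 15 comparisons. In untreated rad21-/- against wild type, the calls numbered 2 (esco2 and ctcf) in place of 4 without the filter and with only the compared libraries fitted. In untreated rad21+/- they numbered 2 (pds5b and ctcf) in place of 1 with all 32 libraries fitted and with the length trend removed. Rad21-/- against rad21+/- gained 1 (esco2) with all 32 libraries. The response to BIO in rad21-/- had 1 call (nipblb) in place of 2 without the filter and 0 with the length trend removed, and that in rad21+/- 1 (nipblb) in place of 0 with only the compared libraries. The mean response to BIO had 4 in place of 5 without the filter (wapla at -0.12, adjusted p = 0.056), 3 with the length trend removed (pds5a, esco2 and hdac8) and 3 without the BIO pools labelled 1 (nipbla, nipblb and hdac8). Treated rad21+/- had 1 (pds5b) in place of 2 with DESeq2's size factors and without the filter, and 3 with only the compared libraries (pds5b, esco2 and hdac8). The call of pds5b in untreated rad21-/- was also lost with those size factors. Leaving out each library gave 2 to 3 calls in untreated rad21-/-, 0 to 2 in the response to BIO in rad21-/-, 3 to 6 in the mean response, 3 to 4 in treated rad21-/- and 0 to 2 in treated rad21+/-, and the same counts elsewhere. In treated rad21-/- nipblb was gained without wild-type BIO pool 1 and without the BIO pools labelled 1.

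The replicate numbers were not taken to pair the pools, since in no compared pair of groups did all 4 same-numbered pairs correlate above 0.1. Some pairs of groups that were not compared did. The same-numbered pool was the best match for all 4 pools of treated wild type in treated rad21-/- and in treated stag2b-/-. It was so too for rad21+/- with and without BIO, and for fewer pools in the other compared pairs. Whether the numbers mark shared batches was not tested. With a replicate block the counts of members called were the same in 14 comparisons, and treated rad21-/- had 4 in place of 3 (waplb lower). With 4 pools a group, standard errors of 0.0625 to 0.145 in comparisons of 2 groups set the size of change that could be called. Spearman's rho kept 16 of the 20 most alike genes among the 10 nearest.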

Other observations

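In untreated rad21-/- a pair of listed genes each moved against a member on the same chromosome in GRCz11, a pattern chosen after their values were seen. The histone deacetylase gene hdac12 lies 40.5 kb from pds5b on chromosome 15, on the opposite strand and with no annotated gene wholly between them, and was at 8.39 ± 1.13 CPM (SD, n = 4) in rad21-/- against 3.96 ± 0.629 in wild type, while pds5b was lower. The kinase gene haspin lies 118.7 kb from pds5a on chromosome 1, with 3 genes between them, and was at 29.1 ± 3.17 CPM against 53.1 ± 7.89, while pds5a was higher. The calls of pds5a and pds5b were close to the threshold and were lost in most fits without 1 pool, and that of pds5a also with the length trend removed. The condensin gene ncapg, another near neighbour of pds5a, was not examined in this way. A relation between position and these changes was not tested.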
